A study of Mus musculus with 10 samples.

Results

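PVT1 neurons are the nuclei of the mouse paraventricular thalamus (PVT) whose highest marker score was that of Drd2, Esr1, Egflam and Egfl6, and 905 of the 20503 deposited nuclei were placed there. Nuclei came from tissue punches of the PVT along its entire antero-posterior axis, with some neighbouring tissue, of C57BL/6J mice aged 12 weeks. The methods describe 4 mice pooled per sample for 4 biological replicates, and no source used here states the pooling of the 6 female libraries. Nuclei were captured in droplets with 10x Genomics 3′ chemistry, which tags each captured RNA molecule with a unique molecular identifier (UMI), so a count is a number of molecules. The 10 libraries were 6 whose titles name female mice and 4 whose titles give no sex and which the deposited metadata gives as male, called male libraries here. They held between 5119927 and 55956635 UMIs. Of 10410 nuclei that the deposited cluster names call neurons, 10307 had more than 1000 genes, and 3684 of those also had at least 2 UMIs of C1ql3, a secreted synaptic protein enriched in the PVT, and no UMI of Gad2, an enzyme of GABA synthesis, or Nwd2. Each of these gated nuclei was scored for 5 marker sets on log counts per 10000 UMIs, scaled over the gated nuclei, and given the set of its highest score, which gave 905 nuclei to PVT1; sets PVT2 to PVT5 took 714, 667, 715 and 683 in that order. PVT1 members were thus chosen by measured counts of 22 genes (the 19 markers of the 5 sets, C1ql3, Gad2 and Nwd2), whose values below are a description. The number of PVT1 nuclei was 38, 38, 209 and 308 in the male libraries and 24, 46, 53, 40, 92 and 57 in the female libraries. Of 20457 barcode sequences, 46 occurred in more than 1 library.

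The PVT is a midline thalamic nucleus of glutamatergic projection neurons that reach the nucleus accumbens, the extended amygdala and the prefrontal cortex, and it is known for its part in arousal, stress and motivated behaviour. Drd2 encodes the D2 dopamine receptor, which couples to an inhibitory G protein and lowers cyclic AMP. Esr1 encodes estrogen receptor alpha, a nuclear receptor that binds paired half-sites in DNA when it holds its hormone. Egflam encodes pikachurin, a matrix protein that binds dystroglycan at photoreceptor synapses, and Egfl6 encodes a secreted protein with EGF repeats. The 4 genes were found in the GENCODE annotation of GRCm38 at chr9:49340627-49408177 on the plus strand for Drd2, at chr10:4611593-5005614 on the plus strand for Esr1, at chr15:7206120-7398395 on the minus strand for Egflam and at chrX:166523007-166585720 on the minus strand for Egfl6.

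All 4 had an entry in the RefSeq promoter table of GRCm38.p6. The 250 bases before the RefSeq start are shown for Drd2, Egflam and Egfl6, the genes that place a nucleus in PVT1, because 1 of the 4 markers is the receptor that reads the half-site; capitals mark each match to the estrogen receptor half-site GGTCA on either strand, and the sequences read 5′ to 3′ on the strand of the gene. The windows lie at chr9:49340153-49340402, chr15:7398396-7398645 and chrX:166585717-166585966. The Esr1 window, at chr10:4611739-4611988, lies within an annotated first exon of another Esr1 transcript and is not shown.
Drd2: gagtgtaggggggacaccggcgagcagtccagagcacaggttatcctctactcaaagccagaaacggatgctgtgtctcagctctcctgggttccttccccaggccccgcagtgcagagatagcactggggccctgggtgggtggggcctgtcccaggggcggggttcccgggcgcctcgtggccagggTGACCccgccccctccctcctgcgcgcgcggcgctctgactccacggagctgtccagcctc
Egflam: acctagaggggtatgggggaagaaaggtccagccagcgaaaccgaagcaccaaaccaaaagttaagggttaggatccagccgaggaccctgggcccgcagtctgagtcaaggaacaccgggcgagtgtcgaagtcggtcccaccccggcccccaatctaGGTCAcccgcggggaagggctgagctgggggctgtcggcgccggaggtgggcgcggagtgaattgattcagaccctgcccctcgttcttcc
Egfl6: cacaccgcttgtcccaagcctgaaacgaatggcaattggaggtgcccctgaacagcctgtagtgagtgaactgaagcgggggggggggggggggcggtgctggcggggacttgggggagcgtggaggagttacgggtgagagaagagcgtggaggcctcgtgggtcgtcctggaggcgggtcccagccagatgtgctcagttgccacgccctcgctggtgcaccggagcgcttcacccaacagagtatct
The Drd2 and Egflam windows held 1 match each, and those of Esr1 and Egfl6 held none. Windows with a match were 31.5% of the 6392 found for all genes tested below, so a single match is common at this length. The share was 29.0% of 107 windows among genes called higher in PVT1 and 28.6% of 98 among genes called lower. A match is a string of letters in the window and says nothing about binding.

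The markers that chose the nuclei are given here as a description, with no test. Values are CPM, the UMIs of a gene relative to all UMIs of the summed nuclei of a set in a library, and are compared only within a gene, since 3′ counts are not scaled by length. Drd2 in PVT1 was 45.5 CPM in the median library, from 26.2 to 79.3, against 49.7 ± 16.1 (SD, n = 10) as mean; the mean was 20.3 ± 11.9 in PVT2, 14.8 ± 3.52 in PVT5, 5.95 ± 5.36 in PVT4 and 2.28 ± 1.98 in PVT3. The PVT1 libraries overlapped with those of PVT2 and with no other set. Esr1 was 54.2 CPM in the median library, from 21.5 to 79.9, with means of 13.2 ± 5.54 in PVT2 and 7.03 ± 4.22 in PVT5, and no library of another set reached the lowest PVT1 value. Egflam was 80.5 CPM in the median library, from 62.2 to 115, against means of 22.7 ± 8.90 in PVT5 and 10.5 ± 3.56 in PVT2, and was likewise separate from every other set. Egfl6 was 43.5 CPM in the median library, from 27.6 to 71.5, against 12.7 ± 8.69 in PVT5 and 11.1 ± 4.60 in PVT2, and its lowest PVT1 libraries overlapped with PVT5. For all 4 genes PVT2 and PVT5 came next after PVT1, and PVT3 and PVT4 were lowest.

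**Figure D1:**
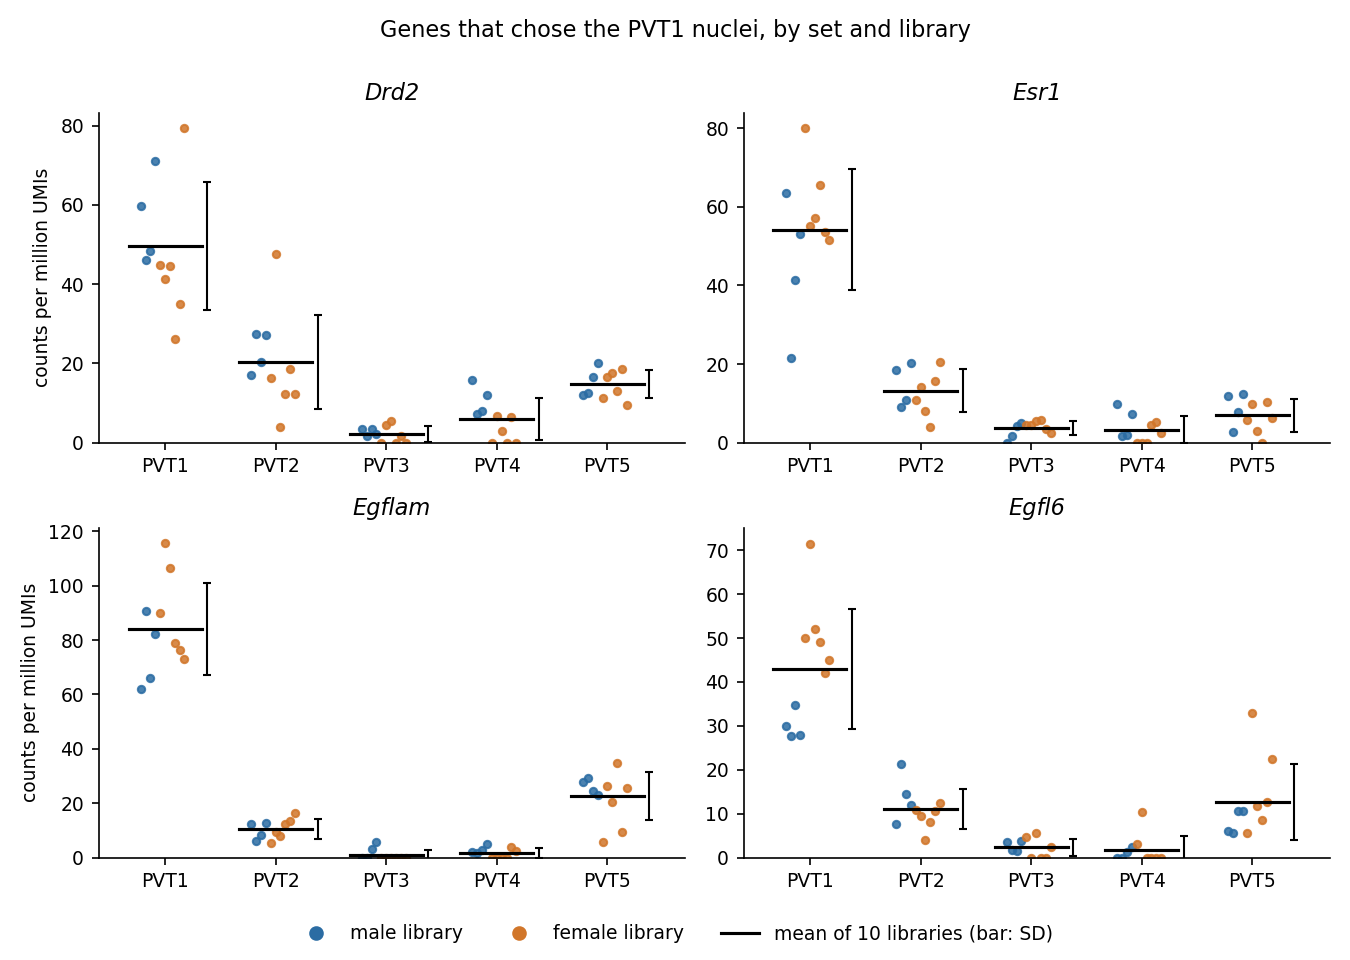
The 4 genes that define PVT1, in CPM on the vertical axis, for each of the 5 sets; a point is 1 library and the bar is the mean over 10 libraries. Egflam and Esr1 libraries of PVT1 lie above every library of the other sets, while Drd2 overlaps with PVT2 and Egfl6 with PVT5.

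Most PVT1 nuclei showed only some of the 4 markers. Egflam was detected in 492 of 905 nuclei (54.4%), Drd2 in 414 (45.7%), Esr1 in 371 (41.0%) and Egfl6 in 289 (31.9%). A single marker was seen in 407 nuclei (44.97%), 2 in 360, 3 in 113 and all 4 in 25 (2.76%); no PVT1 nucleus lacked all of them. The median depth was 10853 UMIs in nuclei with 1 marker and 18760 in nuclei with 4. Drd2 and Esr1 were seen together in 154 nuclei (17.0%) and Drd2 and Egflam in 183 (20.2%). After thinning to 2000 UMIs, which kept all 905 PVT1 nuclei but 1615 of 2462 oligodendrocytes, as shallower nuclei were left out, Drd2 was detected in 10.7 ± 4.55% of PVT1 nuclei and in 0.247 ± 0.503% of oligodendrocytes, a cell type that should lack it (means over 10 libraries). The thinned shares were 10.7 against 0.175% for Esr1, 14.5 against 0.986% for Egflam and 11.5 against 0.175% for Egfl6. Without thinning, the 4 genes were found in 40.1, 40.5, 51.5 and 33.2% of PVT1 nuclei in that order, at a median of 12944 UMIs, against 2321 UMIs in oligodendrocytes.

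The border of PVT1 was not sharp. The second-highest set of a PVT1 nucleus was PVT4 in 328 nuclei, PVT2 in 270, PVT5 in 179 and PVT3 in 128. Of the gated nuclei, 254 had no UMI of any set's markers, and all of these fell in PVT4, whose scaled score at 0 UMIs was the highest of the 5. In 262 PVT1 nuclei (29.0%) the margin over the second set was under 0.5 SD. The 50 PVT1 nuclei nearest to the border had a median PVT1 score of 0.237 against 0.207 for the rival set, and the 50 nearest on the other side had 0.539 against 0.601. When each nucleus was thinned to 4000 UMIs and scored again, 497 of the 893 PVT1 nuclei with that depth (55.7%) stayed in PVT1. The median depth per nucleus was 12944 UMIs in PVT1 and 12907.5, 11352, 11294 and 13908 UMIs in sets PVT2 to PVT5, in that order.

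The deposited clusters, made by the authors from the same counts, placed PVT1 mostly in 1 cluster. Of the 905 nuclei, 696 (76.9%) were in Neurons (1), 128 in Neurons (2) and 48 in Neurons (8). The share in Neurons (1) was 79.7 ± 5.10% over libraries (SD, n = 10), against 81.4 ± 6.12% in PVT2, 60.8 ± 8.00% in PVT5, 30.2 ± 15.6% in PVT4 and 5.94 ± 4.2% in PVT3. PVT1 was above PVT3, PVT4 and PVT5 in 10 of 10 libraries and above PVT2 in 5. These shares are a description, since both assignments used the same nuclei.

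The label was checked against cell type markers. Neuron markers (3 genes) summed to 1572 ± 158 CPM in PVT1. Gad2, which the rule sets to 0, and Gpr101 had 0 UMIs in PVT1, and the 4 genes of GABAergic neurons summed to 1.02 ± 1.70 CPM. Markers of the mediodorsal thalamus (Adarb2) stood at 45.5 ± 30.5 CPM and those of the habenula (Tac2) at 3.27 ± 4.77 CPM. Transcripts of glia were present: 4 oligodendrocyte genes summed to 97.7 ± 24.8 CPM, 3 microglial genes to 67.9 ± 28.1 CPM and 4 astrocyte genes to 40.4 ± 29.3 CPM. The oligodendrocyte sum was above that of PVT2 in 9 of 10 libraries, and the microglial sum was below that of PVT3 in 10 of 10 and below that of PVT4 in 9. None of the 5 glial and vascular genes that passed the count filter was called different between PVT1 and the other sets in the comparison below. That comparison called 3.65% of all tested genes, so 0 calls among a few genes is near that share and does not check the label. Of 4 tested markers of neighbouring neuron groups and 6 tested PVT markers, 0 were called in either direction, again near that share. Adarb2 had a log2 fold change of −0.65 (edgeR, adjusted p = 0.078), and Rbfox3, a splicing factor of neurons, one of −0.32 (adjusted p = 1.05e-05). The part of these transcripts in the results was not tested.

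PVT1 took 24.0 ± 3.20% of the gated nuclei (SD over 10 libraries). The share was 29.9, 21.5, 23.5 and 26.3% in the male libraries and 17.5, 22.8, 25.0, 24.4, 24.7 and 24.6% in the female libraries. The groups overlapped: the female mean was 23.2 ± 2.87% (n = 6) and the male mean 25.3 ± 3.66% (n = 4), a difference of −2.15 percentage points (exact permutation test over 210 splits, 2-sided, p = 0.352). Exact binomial 95% intervals of single libraries, which cover counting error only, ran from 11.6 to 24.9% in the lowest library (female replicate 1, 24 of 137 nuclei) and from 22.1 to 38.7% in the highest (male replicate 1, 38 of 127 nuclei). With scores scaled within each library the difference was larger, at −4.67 points (exact permutation test, p = 0.00952, the smallest that 4 against 6 libraries allow). The sign turned when nuclei were thinned before scoring (0.146 points, exact permutation test, p = 0.933), when a UMI of an own marker was required (0.342, p = 0.867) and at a margin of at least 0.5 (1.32, p = 0.610).

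**Figure D2:**
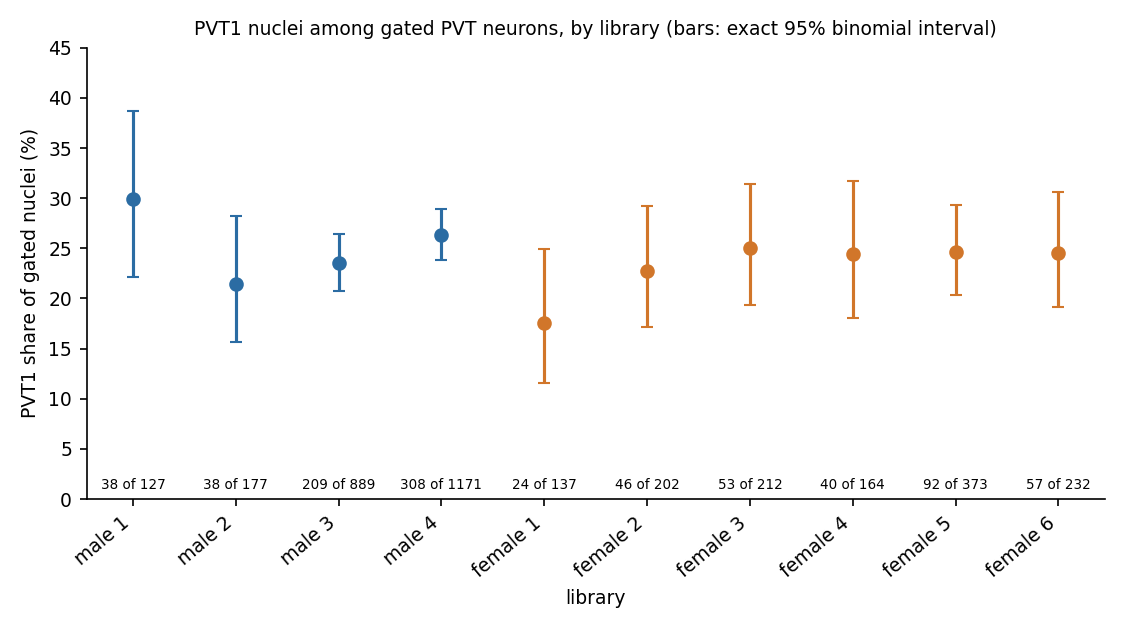
PVT1 as a percent of gated nuclei (vertical axis) in each library, with exact 95% binomial intervals as bars. The interval of each library includes the mean of 24.0%.

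To ask which other transcripts go with the PVT1 markers, UMIs were summed by library and set, and PVT1 was compared with the mean of PVT2 to PVT5 within libraries (edgeR quasi-likelihood test, Benjamini-Hochberg adjusted over 8416 genes that passed the count filter by set, the 22 genes of the rule left out). A gene was called at an adjusted p under 0.05 and an absolute log2 fold change over 0.5. The tested genes come from the nuclei the rule had sorted, and the p-values measure the spread between libraries, which can each hold several mice. PVT1 was higher for 154 genes (1.83% of those tested) and lower for 153 (1.82%), 3.65% in all. With scores taken after thinning the counts were 79 and 100, and 74 of the 154 (48.1%) and 95 of the 153 (62.1%) were called again. With no filter on low counts they were 290 and 319, which held all of the 154 and the 153. The median log2 fold change over all tested genes was −0.00. In sums over nuclei, fewer nuclei with a transcript and less of it per nucleus cannot be told apart. Of the 154 genes called higher, 68 were above the mean of the other sets in every library, and of the 153 called lower, 115 were below it in every library. Of the former, 74 had their highest mean in PVT1 itself and 69 in PVT2; of the latter, 125 had their highest mean in PVT3.

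The direct contrasts, which share the PVT1 sums with one another, gave the fewest calls against PVT5 and PVT2. Against PVT2, 93 genes were called higher (1.11%) and 134 lower (1.59%), 2.70% in both directions. Against PVT5, 86 were called higher (1.02%) and 102 lower (1.21%), 2.23% in both. Against PVT4, 250 were called higher (2.97%) and 243 lower (2.89%), 5.86% in both. Against PVT3, 627 were called higher (7.45%) and 533 lower (6.33%), 13.8% in both. This order turned when scores were taken after thinning, where PVT4 had the fewest calls (30 higher and 109 lower), followed by PVT5 (69 and 87) and PVT2 (62 and 114). Of the 154 genes called higher against the mean, 152 were also called higher than PVT3 and 119 than PVT4, but 41 than PVT5 and 18 than PVT2, while 16 were called lower than PVT2. Of the 153 called lower, 146 were also called lower than PVT3 and 131 than PVT4, against 67 than PVT5 and 39 than PVT2, while 13 were called higher than PVT2.

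Only 4 genes were called higher in PVT1 than in each of the other 4 sets, and 12 were called lower than in each. The genes higher throughout were Slc30a3, Unc13c, Frmpd2, a scaffold protein with FERM and PDZ domains, and Ptgds, a prostaglandin D synthase. Some of these calls lay at the size threshold of 0.5: the log2 difference from PVT2 was 0.5002 for Frmpd2 (adjusted p = 0.0308) and 0.52 for Slc30a3, and Ptgds differed by 0.52 from PVT3 and from PVT4. The call of Ptgds against the mean ended in 5 alternatives, among them leaving out female replicate 5 (0.41). Slc30a3 encodes the transporter that loads zinc into synaptic vesicles. Its PVT1 sums were 84.4 CPM in the median library, from 53.8 to 125, against means of 50.1 ± 14.1 in PVT2, 47.7 ± 17.3 in PVT4, 45.2 ± 13.3 in PVT5 and 25.4 ± 10.8 in PVT3. Its libraries overlapped with those of PVT2, PVT4 and PVT5, yet PVT1 was above each set in 10 of 10 libraries, and the log2 fold change was 0.94 ± 0.0864 (SE, adjusted p = 1.72e-14). Unc13c, a Munc13 family protein that primes synaptic vesicles, was 71.7 CPM in the median library, from 19.97 to 107, against 43.7 ± 16.8 in PVT4, 39.5 ± 21.1 in PVT5, 30.4 ± 21.5 in PVT2 and 22.4 ± 10.2 in PVT3. PVT1 overlapped with every set and was above each in 9 of 10 libraries, female replicate 1, at 19.97 CPM, being the one below (1.13 ± 0.117, adjusted p = 1.64e-12). Among the genes lower throughout were Asic2, an acid-sensing sodium channel, Sema5a and Sgcz, a sarcoglycan. Asic2 was 323 CPM in the median PVT1 library, from 227 to 540.4, against means of 2227 ± 439 in PVT3, 996 ± 434 in PVT4, 752 ± 174 in PVT5 and 507 ± 96.9 in PVT2, and it was lower in 10 of 10 libraries (−1.52 ± 0.0846, adjusted p = 5.70e-24). The other 9 were Lama3, Nhs, Gsg1l, Gas7, Pdzd2, Dleu2, Plch1, Gm11418 and 5530401A14Rik, with log2 fold changes against the mean from −3.20 to −0.89.

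**Figure D3:**
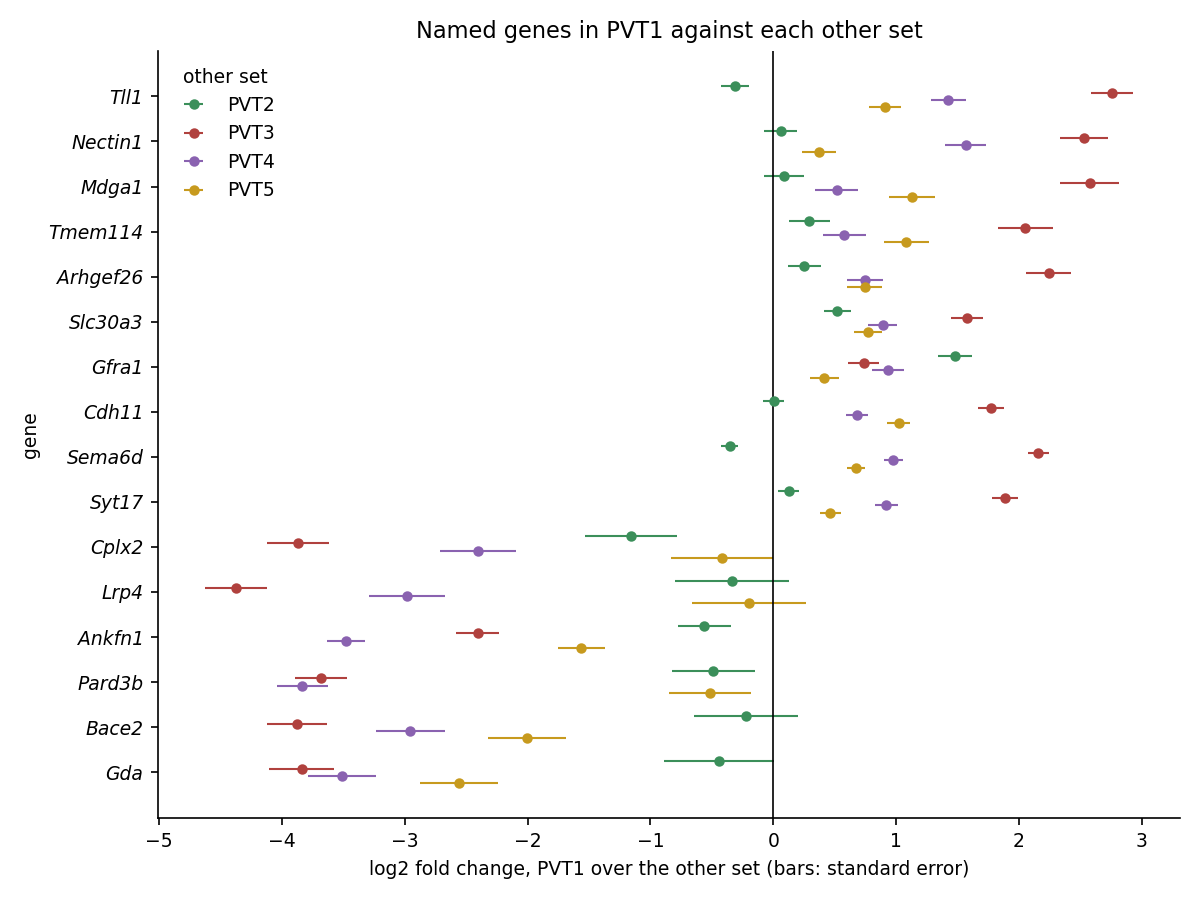
Log2 fold changes of PVT1 against PVT2, PVT3, PVT4 and PVT5 (horizontal axis, with SE) for the 10 genes named for the highest folds and the 6 for the lowest. Points against PVT3 lie farthest from 0 for most genes, and points against PVT2 lie nearest for most.

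Dopamine and other monoamine receptors were examined first, since Drd2 defines the set. Of 25 listed, 2 are genes of the rule and 7 were tested; 0 were called higher and 1 lower, beside 1.83% and 1.82% of all tested genes, with a median of −0.05 against −0.00 for all tested genes. Htr1d, a serotonin receptor that couples to an inhibitory G protein, was the gene called lower, at 9.37 CPM in the median PVT1 library, from 2.63 to 16.5, against means of 37.3 ± 10.2 in PVT3 and 23.2 ± 5.80 in PVT4 (−0.81 ± 0.165, adjusted p = 0.00011). It was separate from PVT3 and overlapped with the other sets, and against PVT2, at 6.5 ± 3.36 CPM, the log2 difference was 0.55 (adjusted p = 0.275). Drd3, a D2-like receptor that belongs to the PVT5 markers of the rule, stood at 18.3 ± 9.42 CPM in PVT1 and 122 ± 23.7 in PVT5 and is a description. Drd1, Drd4 and Drd5 did not pass the filter. Hrh3, a histamine receptor, reached an adjusted p of 1.05e-05 with a log2 fold change of 0.40, under the size threshold. In the edgeR fit with no filter on low counts, Htr1b was called higher (0.66, adjusted p = 0.010). Htr4 (−1.61, adjusted p = 6.5e-05), Adra1a (−1.01, adjusted p = 0.0017) and Hrh2 (−0.73, adjusted p = 0.00085) were called lower there. These adjusted p-values are read with the caution given below for that fit.

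Receptors for neuropeptides and related ligands were called higher for 3 and lower for 1 of 11 tested (37 listed, median 0.18), where 1.83% of all tested genes were called higher and 1.82% lower. Galr1, a galanin receptor that couples to an inhibitory G protein, was 45.3 CPM in the median PVT1 library, from 27.5 to 57.9, against 43.7 ± 8.80 in PVT2, 33.6 ± 11.7 in PVT5, 19.4 ± 6.5 in PVT4 and 11.7 ± 5.24 in PVT3. Its libraries were apart from those of PVT3 only (0.89 ± 0.101, adjusted p = 3.92e-11), and it did not pass against PVT2 (0.04, adjusted p = 0.982) or PVT5 (0.37, adjusted p = 0.0597). Mtnr1a, a melatonin receptor, was 28.4 CPM in the median library, from 13.1 to 44.2, overlapped with every set and was called higher (0.84 ± 0.117, adjusted p = 2.02e-08). Tacr3, the neurokinin B receptor, was the third (0.53, adjusted p = 0.0130), a call that 9 alternatives ended, among them leaving out male replicate 3 (0.47), female replicate 4 (0.46) or female replicate 6 (0.4978). The gene called lower was Hcrtr2, an orexin receptor of the arousal pathway (−0.64 ± 0.132, adjusted p = 0.000143), and its call ended without male replicate 4 (−0.47) and in the female libraries alone (−0.35). The opioid receptor gene Oprm1 had a log2 fold change of 0.31 ± 0.0514 (adjusted p = 2.13e-06), under the size threshold, and Oprk1 one of 0.20 ± 0.0767 (adjusted p = 0.0728). Other listed receptors were called only when edgeR was run with no filter on low counts. Those higher were Mc3r (1.31, adjusted p = 1.7e-08), Ntsr1 (1.05, adjusted p = 0.00033) and Tacr1 (0.85, adjusted p = 0.011). Those lower were Hcrtr1 (−1.29, adjusted p = 0.00013) and Trhr (−2.67, adjusted p = 8.9e-06). The fit without the filter can give small standard errors to genes with few UMIs. The listed receptor Avpr1a had one of 0.0975 with 8 UMIs in PVT1. Adjusted p-values of that fit call for caution.

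The ligand of the first receptor moved the other way. Gal, which encodes galanin, was 3.75 CPM in the median PVT1 library, from 0 to 9.65, against means of 32.4 ± 14.9 in PVT3, 18.8 ± 13.9 in PVT4, 10.9 ± 6.12 in PVT2 and 9.64 ± 7.28 in PVT5. It was below PVT3 in 10 of 10 libraries and below PVT4 in 9, with a tie at 0 in female replicate 2, although the ranges overlapped (−1.72 ± 0.22, adjusted p = 2.05e-09), and against PVT5 it did not pass (−0.85, adjusted p = 0.0993). Igf1, a growth factor of the insulin family, was 53.9 CPM in the median library, from 35.0 to 88.6, against 69.5 ± 20.6 in PVT2, 38.6 ± 14.6 in PVT5, 35.6 ± 17.7 in PVT4 and 4.79 ± 4.59 in PVT3. It was called higher against the mean (0.93 ± 0.110, adjusted p = 1.80e-10), with ranges apart from PVT3 only, and no difference was called against PVT5 (0.32, adjusted p = 0.170). Taken against the sum of all other nuclei instead of the mean of 4 sets, its log2 fold change was 0.43 and it was no longer called. Of the 21 neuropeptides and growth factors listed, 8 were tested, and 1 was called higher and 2 lower (over all tested genes, 1.83% and 1.82%), the third being Nrg1, a ligand of ErbB receptors (−0.64, adjusted p = 7.50e-11). Most listed peptides, among them Nts, Cartpt, Penk, Tac1 and Sst, did not pass the filter. In the edgeR fit without the filter, Nts (−2.33, adjusted p = 8.1e-09) and Cartpt (−1.24, adjusted p = 0.0087) were called lower. Of this list, Dlk1 was called higher there (1.61, adjusted p = 1.7e-25).

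Hormone receptors were examined because Esr1 is one of them. Of 18 listed, 14 were tested, and 1 was called higher and 1 lower (1.83% and 1.82% over all tested genes), with a median of 0.09. Prlr, the prolactin receptor, was 66.0 CPM in the median PVT1 library, from 35.0 to 118, against 89.7 ± 30.6 in PVT2, 57.2 ± 12.8 in PVT5, 42.7 ± 12.3 in PVT4 and 18.6 ± 10.6 in PVT3. It was separate from PVT3 only, and was called higher against the mean (0.82 ± 0.0830, adjusted p = 8.39e-13), not against PVT2 (−0.28, adjusted p = 0.0777). Pgr, the progesterone receptor, had a log2 fold change of 0.09 and an adjusted p of 0.66, and Esr2 did not pass the filter. Insrr, an orphan relative of the insulin receptor, was the gene called lower (−0.71 ± 0.241, adjusted p = 0.0357), and this call ended in 7 of the alternatives, among them leaving out male replicate 1 (−0.67), male replicate 2 (−0.68), male replicate 3 (−0.54) or female replicate 5 (−0.67).

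**Figure D4:**
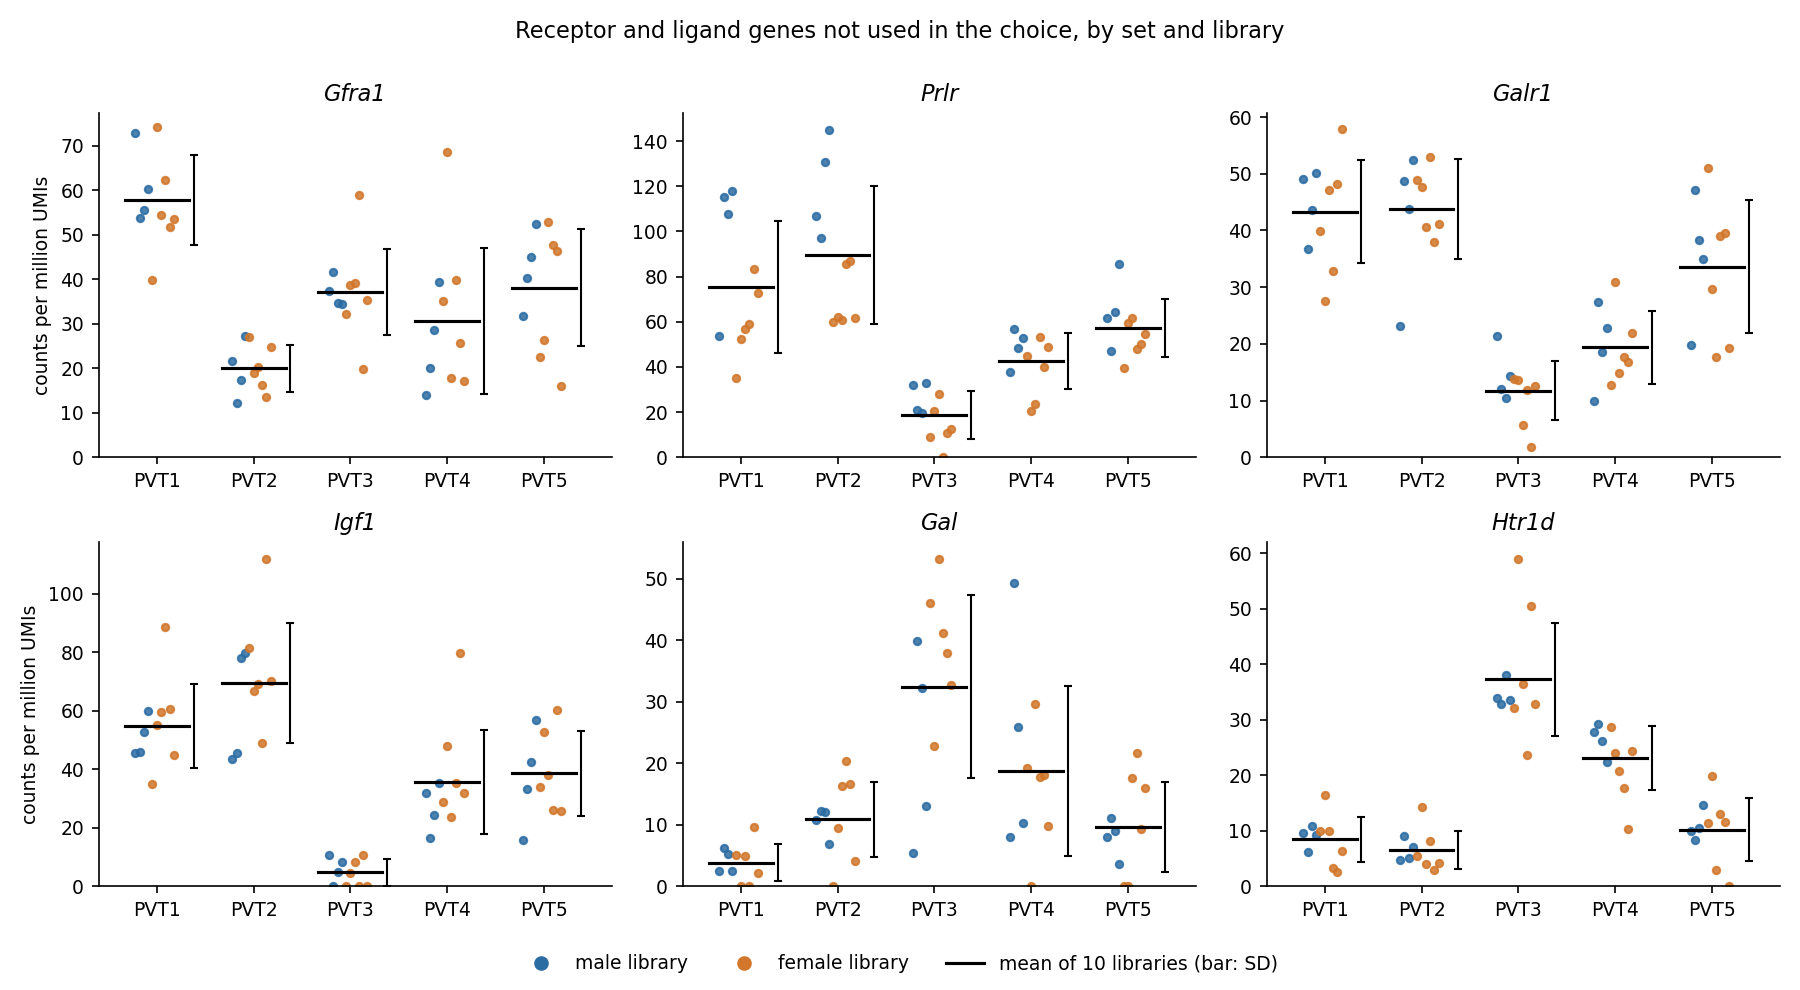
CPM (vertical axis) of Gfra1, Prlr, Galr1, Igf1, Gal and Htr1d by set; a point is 1 library and the bar is the mean of 10. Gfra1 in PVT1 lies above every PVT2 library, while Prlr, Galr1 and Igf1 reach similar levels in PVT1 and PVT2.

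Gfra1, the receptor that binds GDNF and passes the signal on through RET, was among the genes with the highest folds. It was 55.1 CPM in the median PVT1 library, from 39.9 to 74.2, against 38.2 ± 13.1 in PVT5, 37.2 ± 9.68 in PVT3, 30.6 ± 16.3 in PVT4 and 19.98 ± 5.30 in PVT2. It was separate from PVT2, where PVT1 had its largest log2 difference for this gene (1.48, adjusted p = 2.08e-13), and above every set in 10 of 10 libraries (0.89 ± 0.0940 against the mean, adjusted p = 3.27e-12). Against PVT5 the difference was 0.41, under the size threshold.

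Transcripts of glutamatergic transmission were called higher for 3 and lower for 0 of 11 tested, with a median of 0.20, beside 1.83% higher and 1.82% lower over all tested genes. Besides Slc30a3 and Unc13c, the third was Syt17, a synaptotagmin, at 206 CPM in the median PVT1 library, from 148 to 283, against 185 ± 32.0 in PVT2, 144 ± 25.2 in PVT5, 117 ± 23.6 in PVT4 and 48.9 ± 28.7 in PVT3 (0.85 ± 0.0687, adjusted p = 9.70e-17). It was apart from PVT3 only. The vesicular glutamate transporter Slc17a6 had a log2 fold change of −0.01 (adjusted p = 0.93). Of 23 glutamate receptors tested, 1 was called higher and 0 lower, with a median of 0.16: Grm4, a presynaptic metabotropic receptor, was 124 CPM in the median library, from 98.6 to 202, and apart from PVT3 only (0.61 ± 0.0601, adjusted p = 3.77e-13). Cplx2, a complexin that clamps vesicle fusion, was among the 6 genes with the lowest folds, at 1.91 CPM in the median library, from 0 to 4.29, against 32.7 ± 11 in PVT3 and 9.76 ± 7.23 in PVT4 (−1.96 ± 0.280, adjusted p = 4.80e-08). It was apart from PVT3 only, and the difference from PVT5, at 3.69 ± 2.69 CPM, did not pass (−0.42, adjusted p = 0.784).

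Among 18 GABA and glycine receptor subunits tested, 1 was called higher and 1 lower (1.83% and 1.82% of all tested genes), with a median of 0.02. Gabrd, the delta subunit of extrasynaptic GABA receptors, was 37.3 CPM in the median library, from 27.5 to 49.2, overlapped with every set and was above PVT3 and PVT4 in 10 of 10 libraries (0.59 ± 0.104, adjusted p = 6.70e-06). It was called with little to spare, and 3 alternatives ended the call. Glra3, a glycine receptor subunit, was 9.33 CPM in the median library, from 6.56 to 14.0, against 46.5 ± 22.5 in PVT3 and 37.2 ± 11.8 in PVT4, from both of which it was separate, and 17.9 ± 6.39 in PVT2 (−1.36 ± 0.162, adjusted p = 2.27e-10).

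Few of the listed ion channels were called, and the shares over all tested genes were 1.83% higher and 1.82% lower. Of 30 potassium channels tested, 0 were called higher and 3 lower, with a median of 0.03. Kcnh1, a voltage-gated channel, was 15.2 CPM in the median library, from 6.14 to 33.0, against 94.9 ± 23.0 in PVT3, 54.8 ± 22.8 in PVT4 and 31.9 ± 15.0 in PVT5, and was separate from PVT3 (−1.15 ± 0.147, adjusted p = 2.33e-09). Against PVT2, at 8.90 ± 6.13 CPM, it was called higher (1.16, adjusted p = 0.0005). Kcna1, a Shaker channel of axons, was 8.95 CPM in the median library, from 2.14 to 25.0 (−0.84 ± 0.153, adjusted p = 1.47e-05), and overlapped with every set. Kcnk2, a leak channel, was the third (−0.73, adjusted p = 2.98e-07). Of 21 listed calcium, sodium and other cation channels, 19 were tested, and 1 was called higher and 0 lower, with a median of 0.05. This was Cacna1i, a T-type channel of the kind that gives thalamic burst firing, at 36.5 CPM in the median library, from 19.97 to 71.7 (0.54 ± 0.105, adjusted p = 5.53e-05). The call ended in 4 alternatives. Cacna1i was 0.44 without male replicate 1, which was the highest, and 0.35 in the female libraries alone (edgeR, adjusted p = 0.471). It was 0.437 after thinning and 0.343 against 1 sum of the other nuclei. Asic2, the sodium channel called lower than each of the other sets, was not on this list. Cacna1h, another listed T-type channel, did not pass the filter. It was called lower in the edgeR fit without the filter (−1.11, adjusted p = 0.00012).

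Calcium-binding proteins were called for 1 of 9 tested, beside 3.65% of all tested genes in both directions, with a median of −0.03. Hpcal1, a neuronal calcium sensor, was 5.52 CPM in the median PVT1 library, from 0 to 10.8, against means of 33.5 ± 22 in PVT4 and 22.4 ± 9.09 in PVT3, with overlap in every set (−1.32 ± 0.201, adjusted p = 2.56e-07). Calretinin, encoded by Calb2, was 191 CPM in the median library, from 132 to 284, and its log2 fold change of 0.30 ± 0.0583 (adjusted p = 4.60e-05) was under the size threshold. Calb1, which encodes calbindin, had a log2 fold change of −0.03 ± 0.0955 (adjusted p = 0.934), with a lower level than PVT2 (−0.76, adjusted p = 3.35e-07) and a higher level than PVT3 (0.74, adjusted p = 8.15e-06). Pvalb did not pass the filter, at 1.65 ± 2.01 CPM in PVT1.

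**Figure D5:**
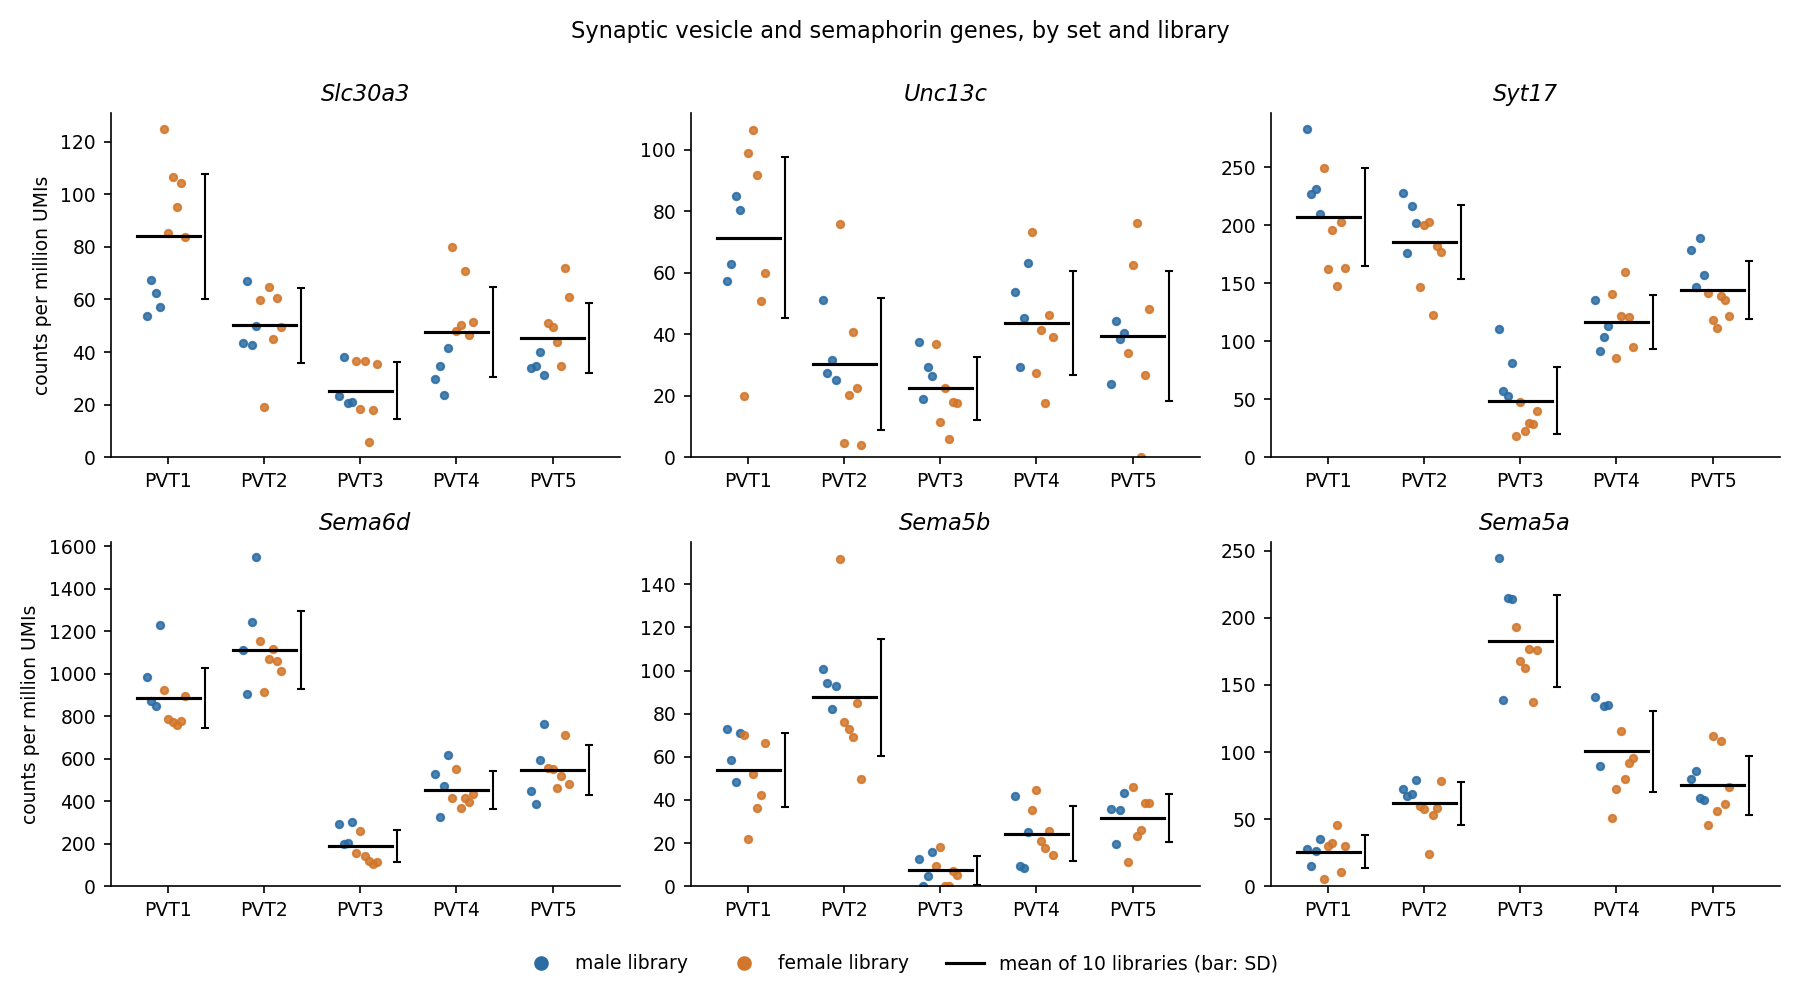
CPM (vertical axis) of Slc30a3, Unc13c, Syt17, Sema6d, Sema5b and Sema5a by set; a point is 1 library and the bar is the mean of 10. Slc30a3 and Unc13c have their highest mean in PVT1, Sema6d and Sema5b in PVT2, and Sema5a is lowest in PVT1.

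Genes of axon guidance gave 5 calls higher and 2 lower of 29 tested, with a median of 0.06, beside 1.83% and 1.82% of all tested genes. Semaphorins are membrane-bound or secreted proteins that steer growing axons, and Sema6d, Sema5b and Sema5a, which are membrane-bound, were called in different directions. Sema6d was 859.9 CPM in the median PVT1 library, from 758 to 1228, against 1114 ± 184 in PVT2, 548 ± 117 in PVT5, 452 ± 89.3 in PVT4 and 189.7 ± 74.7 in PVT3. It was separate from PVT3 and PVT4 and lower than PVT2 in 10 of 10 libraries, with a log2 fold change of 0.86 ± 0.0574 against the mean (adjusted p = 2.24e-20) and −0.36 against PVT2. Sema5b was 55.2 CPM in the median library, from 22 to 72.9, against 87.5 ± 27.0 in PVT2 and 7.27 ± 6.63 in PVT3 (1.04 ± 0.124, adjusted p = 1.76e-10), separate from PVT3 only and called lower than PVT2 (−0.64, adjusted p = 0.000317). Sema5a was 28.7 CPM in the median library, from 4.99 to 45.9, against 182.7 ± 34.4 in PVT3, 101 ± 30.1 in PVT4, 75.2 ± 21.8 in PVT5 and 61.8 ± 15.9 in PVT2 (−1.92 ± 0.109, adjusted p = 6.26e-24). It was separate from PVT3 and PVT4. The receptors Unc5b, which binds netrin (0.75, adjusted p = 4.59e-12), Epha3, an ephrin receptor (0.72, adjusted p = 4.28e-18), and Plxna2, which binds semaphorins (0.61, adjusted p = 3.73e-15), were called higher, and Nrp2, a semaphorin co-receptor, was called lower (−0.77, adjusted p = 9.73e-05). The Nrp2 value was −0.16 (adjusted p = 0.883) in the female libraries alone and −0.52 (adjusted p = 0.369) with no library block, and neither was called.

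Adhesion proteins of cells and synapses gave 2 higher and 3 lower of 18 tested (all tested genes, 1.83% and 1.82%), with a median of 0.10. Cdh11 was 167 CPM in the median PVT1 library, from 143 to 242, and 164 ± 47.8 CPM in PVT2, and separate from PVT3, PVT4 and PVT5 (0.87 ± 0.0692, adjusted p = 4.64e-17). Cbln4, a secreted organizer of synapses, was also called higher (0.81, adjusted p = 6.19e-07). Cdh18 was 373 CPM in the median library, from 349.5 to 592, against 1065 ± 149 in PVT3, 876 ± 147 in PVT5, 703 ± 142 in PVT4 and 522 ± 102 in PVT2 (−0.91 ± 0.0692, adjusted p = 8.24e-18), separate from PVT3 and PVT5. Cbln2 (−0.62, adjusted p = 0.000794) and Cdh4 (−0.54, adjusted p = 1.68e-07) were called lower as well. In the edgeR fit without the filter, Cdh22 was called higher (1.03, adjusted p = 4.0e-11) and Cdh24 lower (−0.81, adjusted p = 0.012). Of the genes with the highest folds, Nectin1, an adhesion protein of junctions, was 32.6 CPM in the median library, from 27.3 to 45.9, and separate from PVT3 and PVT4 (1.13 ± 0.116, adjusted p = 1.32e-12). Mdga1, which blocks the binding of neuroligins to neurexins, was 23.4 CPM in the median library, from 19.8 to 29.9, and separate from PVT3 (1.08 ± 0.140, adjusted p = 3.17e-09).

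Of 25 matrix genes listed, 4 are genes of the rule (Egflam, Egfl6, Col12a1 and Col6a1). Of the 5 that were tested, 2 were called higher and 0 lower, against 1.83% and 1.82% of all tested genes, with a median of 0.06. Lama3, a laminin chain called lower than each of the other sets, was not on this list (−1.18 ± 0.116 against the mean, adjusted p = 3.23e-13). In the edgeR fit without the filter, Fn1 was called higher (1.22, adjusted p = 0.018). Col11a1 (−1.63, adjusted p = 0.0035) and Lama2 (−0.67, adjusted p = 0.037) were called lower there. Fbln1, which encodes fibulin-1, was 111 CPM in the median PVT1 library, from 71.9 to 149.96, against 100.4 ± 20.9 in PVT2, 87.2 ± 12.1 in PVT5, 68.8 ± 23.8 in PVT4 and 43.1 ± 8.61 in PVT3 (0.66 ± 0.0718, adjusted p = 1.01e-11). It was separate from PVT3 only. Col25a1, a membrane collagen of neurons, was 460.1 CPM in the median library, from 345 to 593, against 841 ± 205 in PVT2 and 84.9 ± 51.0 in PVT3 (0.64 ± 0.0930, adjusted p = 6.78e-08), and was called lower than PVT2 (−0.83, adjusted p = 2.78e-08). The Col25a1 call against the mean ended in the female libraries alone (0.34), after thinning (0.39) and against 1 sum of the other nuclei (0.20). Tll1, a secreted protease of the tolloid family, had the highest fold of the genes named, at 105 CPM in the median library, from 57.0 to 137, against 128 ± 39.1 in PVT2 and 14.3 ± 8.51 in PVT3, from which it was separate (1.20 ± 0.102, adjusted p = 8.59e-16).

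Of 20 transcription factors of the thalamus tested, 3 were called higher and 0 lower, where all tested genes gave 1.83% and 1.82%, with a median of 0.02. Mkx, a homeobox factor, was 79.6 CPM in the median PVT1 library, from 57.0 to 111, against 99 ± 17.6 in PVT2, 86.5 ± 34.6 in PVT5, 30.2 ± 15.2 in PVT4 and 7.19 ± 5.09 in PVT3, and was separate from PVT3 and PVT4 (1.12 ± 0.110, adjusted p = 3.23e-13). Etv1, an ETS factor, was separate from the same sets at 61.8 CPM in the median library, from 49.6 to 85.7 (0.66 ± 0.0928, adjusted p = 2.75e-08). Glis1, a zinc-finger factor, was the third (0.55, adjusted p = 6.74e-06) and was called lower than PVT2 (−0.74, adjusted p = 2.77e-07); 8 alternatives ended its call against the mean, among them leaving out male replicate 3 (0.49) or male replicate 4 (0.45) and taking the female libraries alone (0.23). Tcf7l2 and Lhx2, which mark thalamic neurons, did not pass (0.05, adjusted p = 0.49, and 0.13, adjusted p = 0.43). Of the immediate early genes, which neurons switch on when active, 6 of 18 were tested and 1 was called (3.65% over all tested genes in both directions): Npas4 was 26.2 CPM in the median library, from 3.28 to 47.9, and overlapped with every set (0.64 ± 0.150, adjusted p = 0.000885), a call that ended without male replicate 4 (0.54, adjusted p = 0.0635). The edgeR fit with no filter on low counts called 290 genes higher and 319 lower of 26542. Junb (0.66, adjusted p = 6.1e-05), Nr4a2 (0.97, adjusted p = 0.018), Ier2 (0.69, adjusted p = 0.033) and Dusp1 (0.501, adjusted p = 0.0054) were called higher there. No immediate early gene below the filter was called lower there.

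The remaining genes with the highest folds were Tmem114, a claudin-like membrane protein (1.00 ± 0.137), and Arhgef26, a guanine nucleotide exchange factor (0.99 ± 0.112), both above the mean of the other sets in 10 of 10 libraries. Of the remaining genes with the lowest folds, Gda, Bace2, Pard3b and Lrp4 were at a few CPM or less in the median PVT1 library, and Ankfn1 was higher. Gda, a guanine deaminase, was 2.72 CPM in the median PVT1 library, from 0 to 13.1, against 42.2 ± 19.2 in PVT3, 27.8 ± 12.8 in PVT4 and 18.3 ± 11.2 in PVT5 (−2.59 ± 0.279, adjusted p = 7.25e-12), and separate from PVT3 only. Bace2, an aspartyl protease, was 1.79 CPM in the median library, from 0 to 6.14, and separate from PVT3 and PVT4 (−2.26 ± 0.266, adjusted p = 1.42e-10). Pard3b, a polarity protein, was 2.59 CPM, from 0 to 14.9, and separate from PVT3 (−2.13 ± 0.228, adjusted p = 5.37e-12). Ankfn1 was 21.0 CPM, from 5.98 to 24.7, and separate from PVT3 and PVT4 (−2.0 ± 0.153, adjusted p = 8.61e-18), and Lrp4, a co-receptor for agrin, was 1.33 CPM, from 0 to 2.75, and separate from the same sets (−1.97 ± 0.317, adjusted p = 8.95e-07). In PVT2 Gda, Bace2 and Lrp4 were also low, at 1.84 ± 2.16, 2.48 ± 2.47 and 1.87 ± 2.03 CPM, and none passed against PVT2. Dlk1, a membrane protein of the Notch ligand family, did not pass the filter, at 20.3 ± 9.58 CPM in PVT1, 25.8 ± 24.0 in PVT4 and 1.52 ± 2.99 in PVT2. When edgeR was run without the filter, Dlk1 was called higher against the mean of the other sets (1.61 ± 0.147, adjusted p = 1.7e-25). It was above that mean in 8 of 10 libraries, its mean in PVT4 was higher than in PVT1, and the caution given above for that fit holds here.

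Within PVT1, the 6 female libraries were compared with the 4 male ones. Sex cannot be told apart here from deposit batch, from the gene annotation behind the counts or from depth. The median depth of PVT1 nuclei was between 13449 and 22244 UMIs in the male libraries and between 6926 and 11189 in the female ones. In the deposited counts, mitochondrial genes had 562659 UMIs in female nuclei and 0 in male ones. The deposited mitochondrial percent was not 0 in the male libraries. Its medians over PVT1 nuclei ran from 0.0488 to 0.517% there and from 0.516 to 1.08% in the female libraries. Sex-linked genes, chosen after their values were seen, followed the labels: Xist was 899 ± 260 CPM in the female libraries and 0.453 ± 0.732 in the male ones, and Uty, Eif2s3y and Ddx3y had 0 UMIs in every female library. Of 7855 genes tested, 111 were called higher in the female libraries (1.41%) and 74 lower (0.942%), 2.36% in all, at an adjusted p under 0.05. Without male replicate 2 the counts were 282 and 157, and without female replicate 3 they were 64 and 52.

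Slc30a3, called higher in PVT1 than in the other sets, was also called higher in the female libraries, at 99.95 ± 15.4 CPM against 60.3 ± 6.05 in the male ones, which did not overlap (0.80 ± 0.153, adjusted p = 0.00672). Oprk1 was 48.9 CPM in the female and 79.3 in the male libraries (−0.69, adjusted p = 0.0514), and Prlr 59.9 and 98.6 (−0.58, adjusted p = 0.181), neither of which passed. By the rule for named genes, those higher in the female libraries were Jakmip1, at 438 ± 38.7 against 163 ± 18.7 CPM (1.5 ± 0.111, adjusted p = 3.31e-07), Rcc1 (2.90), Acadl (3.64), Ggnbp1 (2.39) and Pgm2 (2.37). Those lower were Tnrc6a, at 73.2 ± 16.4 against 327 ± 17.7 CPM (−2.03 ± 0.130, adjusted p = 9.04e-08), Nt5dc3 (−2.76), Smim14 (−1.55), Ip6k1 (−2.21) and Cmtr1 (−3.48). The female and male libraries did not overlap for these 10 genes, which is a description only, since the smallest p chose them. Pgm2 and Pgm1 went in opposite directions, at 33.2 ± 8.77 against 7.46 ± 1.57 CPM and at 3.51 ± 2.42 against 34.8 ± 4.83 CPM. Mouse annotations have used these symbols in exchanged form, and Pgm1 was added after its values were seen. Whether an exchange of symbols lies behind the opposite directions was not tested. The sum of both genes was 36.7 ± 8.24 CPM in the female and 42.2 ± 5.67 in the male libraries.

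Whether the sexes differed in PVT1 in another way than in the other sets was tested as an interaction over 7957 genes. No gene was called in either direction (0%), with 372 genes at an unadjusted p under 0.05 by edgeR and 0 called, 309 unadjusted, by DESeq2. With no filter on low counts 3 genes, named after their values were seen, were called lower: Trpm3, a cation channel (−0.87 ± 0.100, adjusted p = 6.66e-14), Col25a1 (−0.55 ± 0.0946, adjusted p = 4.04e-05) and Gpc5, a glypican (−0.48 ± 0.0917, adjusted p = 0.00073). In the filtered fit their log2 values were −0.87, −0.55 and −0.48 with larger standard errors, of 0.210, 0.163 and 0.170.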

How the data were processed

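The authors counted reads of 10x Genomics 3′ libraries with Cell Ranger (version 6.1.1 in the submitters' processing notes, with build mm10, and another version in the methods) and deposited the counts without normalization, as UMIs for 33502 gene symbols and 20503 nuclei, after removal of nuclei with few genes, many mitochondrial transcripts or doublet-like clusters. The authors also deposited the percent of mitochondrial UMIs per nucleus; 21 further metadata columns were not used here. A DoubletFinder label, where deposited, names singlets only, and no doublet caller was run here.

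The members, gene lists and tests were chosen with earlier results of these data known. Counts were summed per library and set, with a minimum of 10 nuclei. These sums entered the quasi-likelihood test of edgeR 4.0.16 under R 4.3.3, with TMM scaling, the filterByExpr filter by set, Benjamini-Hochberg adjustment and library as a block; the sexes and the interaction were fitted the same way. DESeq2 1.42.0 was an alternative. Shares were compared by an exact permutation test over libraries in Python 3.11.15. A gene can pass the filter through the set where it is high. Adjusted p-values of the fit without the filter call for caution, since genes with few UMIs can have small standard errors there. The fits were tested on simulated data. The genes named were the 10 with the highest and 6 with the lowest folds among called genes that moved the same way in every library and had a mean of at least 5 CPM where high (clone names left out), up to 2 called per list, further genes listed for PVT neurons (most of them named by the study, Dlk1 not), and the 5 with the smallest p per direction between the sexes. Further list members, and genes different from every set, were named after their values were seen. A few genes that this rule would name are not reported here. PVT1 nuclei with and without a marker UMI could not be compared, because 0 nuclei lacked all 4. Replicate numbers are shared by female and male libraries but do not pair them: the deviations of same-numbered libraries correlated at 0.011, −0.010, −0.040 and −0.001.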

Additional observations from a re-analysis of the deposited data

Results flagged for a closer look

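Of 162 tests for a library that stands apart from the rest of its sex group (Dixon's test at its 95% critical value), 21 were past the limit. Many of the 21 are markers of the rule, whose values chose the nuclei, so this number cannot be set against chance. Each value below is that of the library named, in PVT1, and was not explained.

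The PVT1 share was 17.5% in female replicate 1, and the next female library was at 22.8%. The median depth was 11189 UMIs per nucleus in female replicate 5, against 8219 in the next. The markers of the rule follow as a description only, since their values chose the nuclei. Of the PVT1 markers, Drd2 was 79.3 CPM in female replicate 6, against 44.9 in the next, and Egfl6 71.5 CPM in female replicate 2, against 52.0. Among markers of the other sets, which are low in PVT1, Glis3 was 0 CPM in female replicate 1, Gypc 1.75 in female replicate 5, Col6a1 0.255 in male replicate 4 and 2.75 in female replicate 2, Bmper 14.98 in female replicate 1, Fmo1 0.255 in male replicate 4 and 0.877 in female replicate 5, Kirrel 0.877 in female replicate 5 and Slc22a3 16.9 in male replicate 2. Most of these rest on a few UMIs.

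Oprm1 was 320.1 CPM in male replicate 4 and Dlk1 32.2 CPM in male replicate 2. Of the genes compared between sets, Mdga1 was 23.2 CPM in male replicate 3, Pard3b 14.9 in female replicate 3, Prlr 53.8 in male replicate 1, against 108 in the next male library, Kcnh1 33.0 in female replicate 2 and Cdh18 508 in female replicate 6. Smim14, named for the sex comparison, was 203 CPM in male replicate 1.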

How the results depend on the processing

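Of the calls against the mean of PVT2 to PVT5 for genes named in the text, those of Tacr3, Glis1, Insrr, Ptgds, Cacna1i, Cdh4, Hcrtr2, Gabrd, Col25a1, Grm4, Etv1, Npas4, Nrp2, Plxna2, Igf1, Htr1d, Nrg1, Cbln2 and Dleu2 ended under at least 1 alternative. A call can end while the fold stays about as large. Without the library block Dleu2 was −0.85 (−0.89 as reported) and Cbln2 −0.72 (−0.62), where the adjusted p was not under 0.05. Nrg1 was −0.499 after thinning, just under the size threshold (edgeR, adjusted p = 1.4e-07). Named calls against single sets were not followed gene by gene. A gene has no value where it was not among the genes an alternative tested: of 23 alternatives, Frmpd2 and Cplx2 were tested in 13, Bace2 in 14, Hpcal1 and Mtnr1a in 15, Mdga1 and Pdzd2 in 17, Gal and Tmem114 in 18, and Cbln4 and Lrp4 in 19. Calb1 and Oprk1, which were not called, changed sign. The values for Calb1 were 0.018 with nuclei that had a UMI of an own marker, 0.033 after thinning, 0.031 without male replicate 1 and −0.0837 without male replicate 2; Oprk1 was −0.052 in the female libraries. The genes called higher and lower against PVT2 to PVT5 numbered 290 and 319 with no filter on low counts, 79 and 100 when scores were taken after thinning, and 256 and 242 in the male libraries; 97 were lower with no library block. Against 1 sum of the other nuclei the counts were 119 and 189, so that 38.6% were higher, against 50.2% in the comparison as reported. Calls against PVT2 numbered 361 without the filter and 92 without the block, and against PVT3 2225 without the filter. Against PVT4 they were 870 without the filter, 272 without the block, 767 at a margin of at least 0.5, 139 after thinning, 848 in the male and 213 in the female libraries. Against PVT5 they were 295 without the filter, 83 without the block and 118 in the female libraries. Leaving out each library in turn gave 130 to 167 genes higher and 132 to 176 lower against the mean, and 176 to 237, 1030 to 1255, 390 to 555 and 149 to 197 calls against PVT2 to PVT5 in that order.

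Between the sexes, 175 genes were higher and 201 lower without the filter, and 146 and 94 by DESeq2. With replicate block the counts were 50 and 34; the libraries share only a number, no pairing is given by the labels, and the fit with the block is no evidence of a weaker effect; Slc30a3 was 0.85 there (adjusted p = 0.0702). Leaving out each library gave 64 to 282 higher and 52 to 157 lower. Without the filter the interaction gave 3 genes, with a 0 count in the other fits. The female minus male share of PVT1 was 0.342 points with nuclei that had an own marker (exact permutation test, p = 0.867), 1.32 at a margin of at least 0.5 (exact permutation test, p = 0.610), −4.67 with scores scaled within each library and 0.146 after thinning, where the mean share was 18.5%; it ran from −3.43 to −0.608 when single libraries were left out. The causes were not tested. The 24 PVT1 nuclei of female replicate 1, with 188390 UMIs, were the thinnest base for a value, so low genes in that library are limited by depth.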
